A study of Homo sapiens with 16 samples.

Results

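The CCR4-NOT complex is the main cytoplasmic deadenylase of human cells, and the mRNAs of its 10 core subunits were followed here by their 3′ end tags. The members were taken by name (CNOT1, CNOT2, CNOT3, CNOT6, CNOT6L, CNOT7, CNOT8, CNOT9, CNOT10 and CNOT11) and are 10 of the 60107 genes listed for each library. Tags came from cytoplasmic RNA of U2OS-TR, human osteosarcoma cells with a tetracycline repressor, and the study asked how transcript levels change when methylation of caps in the cytoplasm is inhibited. Control (n = 5) and Induced (n = 5) cells shared a transgene for ΔN-RNMT, a C-terminal part of the cap methyltransferase RNMT with a mutated binding site for the methyl donor and a nuclear export signal. The transgene is driven from a tetracycline-operator promoter, was selected with G418 and is represented by 1 clonal line. Control cells had no doxycycline, whereas Induced cells received 1 μg/ml doxycycline 48 h after they were split and were collected 24 h later. The doxycycline control was the parental U2OS-TR line without the transgene, as No Dox (n = 3) and With Dox (n = 3) libraries. The protocol recorded with the libraries lists doxycycline for every one of them, so the treatment was taken from the library titles and the study's methods.

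Deadenylation shortens the poly(A) tail and is usually the step that commits an mRNA to decapping and decay, or lowers its translation. CNOT1 is the large scaffold on which the complex is built. CNOT2 and CNOT3 form the NOT module at its C-terminal end, CNOT9 docks beside them and offers pockets for repressor proteins, and CNOT10 and CNOT11 bind its N-terminal part. Catalysis comes from a CAF1-type exonuclease, which is CNOT7 or its paralog CNOT8, and a CCR4-type exonuclease, which is CNOT6 or its paralog CNOT6L, so that each complex holds 1 enzyme of each pair.

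Depth was 12527183 to 23251834 gene tags per library in the transgene line and 1473286 to 3214808 in the parental line, which was sequenced at another facility with another instrument and longer reads, so that line and facility cannot be told apart. RNMT tags may include some of the transgene, whose share is not given in the sources used here. They were 66.0, 55.5, 62.6, 74.4 and 112 tags per mega-tag (CPM, scaled with TMM factors) in Control 1 to 5. In Induced 1 to 5 they were 278, 360, 265, 457 and 367 CPM, so every Induced library lay above every Control library. By the root mean square log2 distance over all tested genes, 2 libraries sat nearer the other group than their own. Control 5 was at 0.963 from the mean of the other Control libraries and 0.369 from the Induced mean, and Induced 2 was at 0.778 from the mean of the other Induced libraries and 0.444 from the Control mean. Their RNMT levels followed their labels, and the members' values for the transgene line are given with and without them. Of the 9 mesenchymal and bone markers examined, VIM, COL1A1, SPARC and RUNX2 were present in all groups. The osteoblast markers SP7 and BGLAP had 0 tags in all 16 libraries. A count of 0 allows up to 0.239 CPM in a library of the transgene line and up to 2.04 CPM in one of the parental line. COL1A2 had 2 tags in Induced and 0 in the other groups, and IBSP had 1 tag in With Dox and 0 in the others. ALPL had group means of 0.265 to 0.912 CPM. The summed level of these 9 markers was 305 to 640 CPM in Control and 492 to 883 CPM in Induced libraries, that of 3 epithelial markers 5.12 to 12.7 and 7.42 to 16.5 CPM, and haematopoietic markers reached at most 0.696 CPM. Among nuclear RNAs, MALAT1 differed by 0.03 ± 0.22 (log2 ± SE) between Induced and Control, and NEAT1 was lower in Induced by -0.44 ± 0.16 (edgeR, Benjamini-Hochberg adjusted p = 0.0410). The part of these markers in the results below was not tested.

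In Control cells the members' levels fell into steps. CPM are not divided by transcript length, because the assay yields 1 tag per 3′ end. CNOT11 stood first at 988.5 ± 282 CPM (SD, n = 5) and CNOT9 second at 160.2 ± 30.0 CPM, followed by CNOT7 at 117 ± 45.4 CPM, whose libraries overlapped those of CNOT9. CNOT1, CNOT2 and CNOT6 lay together at 40.5 ± 8.60, 37.1 ± 3.81 and 36.7 ± 3.41 CPM and their ranges overlapped. CNOT3 (20.7 ± 5.14 CPM) overlapped CNOT6L (12.9 ± 2.90 CPM), and CNOT10 (7.98 ± 0.825 CPM) overlapped CNOT8 (7.57 ± 3.62 CPM), which through Control 5 also overlapped CNOT6L. The steps between CNOT11 and CNOT9, between CNOT7 and CNOT1, between CNOT6 and CNOT3, and between CNOT6L and CNOT10 were larger than the spread, since no Control library of the upper gene reached down to the lower one. In Induced cells CNOT11 was again first and CNOT10 last, but CNOT7 (203.6 ± 27.0 CPM) stood above CNOT9 (142 ± 20.2 CPM), with their ranges overlapping, and CNOT8 (20.3 ± 7.80 CPM) had moved from the last place to the eighth, beside CNOT6L (18.3 ± 4.35 CPM).

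**Figure D1:**
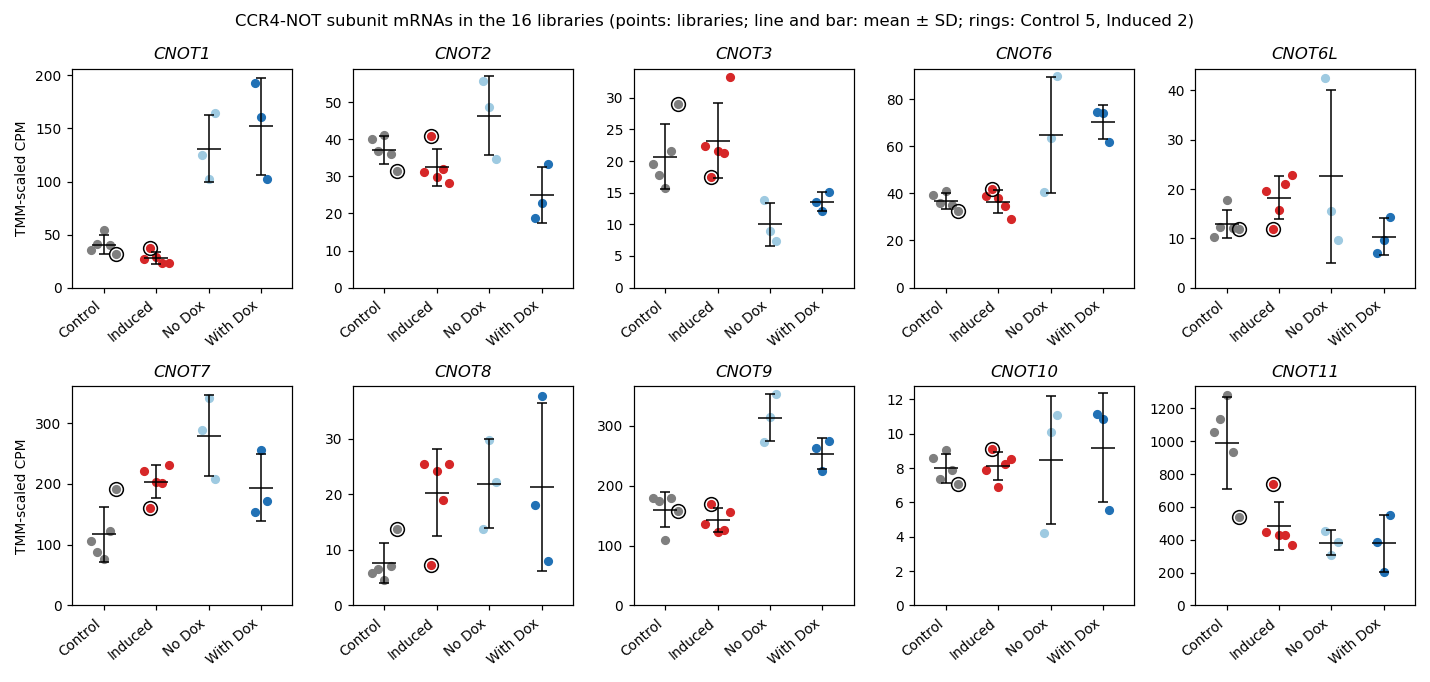
Levels of the 10 CCR4-NOT subunit mRNAs (vertical axis, TMM-scaled CPM from 0) in the Control, Induced, No Dox and With Dox libraries, with points for libraries, lines and bars for the mean ± SD of each group, and rings around Control 5 and Induced 2. CNOT11 falls from 988.5 to 483.5 CPM and CNOT8 rises from 7.57 to 20.3 CPM from Control to Induced, with the ringed libraries lying between the others of the 2 groups.

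Induction of ΔN-RNMT went with lower levels of CNOT11 and CNOT1 mRNA and higher levels of CNOT8 and CNOT7 mRNA, and the other 6 members did not pass the test. These 4 calls were 40% of the members, beside 39.8% of all 13038 tested genes (edgeR quasi-likelihood test, Benjamini-Hochberg adjusted p below 0.05), so the share called is no result about the complex. The calls were split as 2 lower and 2 higher, and 19.8% and 20% of all tested genes were called in those directions. At an unadjusted p below 0.05 there were 5 members, with CNOT6L, beside 53.3% of all genes. The median log2 fold change of the 10 members was 0.01, against 0.04 for all tested genes. No member had Control and Induced libraries free of overlap, whereas 7.3% of all tested genes did. Without Control 5 and Induced 2, 5 members did not overlap (CNOT1, CNOT2 and CNOT11 lower, CNOT7 and CNOT8 higher), or 50% of the members beside 59.4% of all genes. In bulk RNA a change in the share of some cells and a change in RNA per cell cannot be told apart.

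CNOT11 and CNOT10 form the N-terminal arm of the complex, of which CNOT11 was called lower and CNOT10 was not called; whether their responses differed from each other was not tested. CNOT11 (ENSG00000158435, plus strand of chr2:101252886-101270316 in GRCh38, 7 exons) overlaps no other annotated gene. It counted 1054, 1136, 1280, 937 and 536 CPM in Control 1 to 5 and 449, 740.3, 429, 430.1 and 369 CPM in Induced 1 to 5. Control 5 was the lowest Control library and Induced 2 the highest Induced library, and the groups overlapped through these 2 libraries alone. The difference was -1.03 ± 0.26 (log2 ± SE), or 2.04-fold lower in Induced, with an adjusted p of 0.0177 by edgeR. It passed with every single library left out (adjusted p at most 0.0495), was -1.40 without Control 5 and Induced 2, and did not pass once 1 surrogate variable was fitted (-0.54, adjusted p = 0.0905). Because of its high level, CNOT11 supplied 67.9% ± 9.99 (SD, n = 5) of all member tags in Control and 47.8% ± 7.33 in Induced libraries. Summed over the members, Control libraries held 1043 to 1650 CPM and Induced libraries 916 to 1237 CPM, and without CNOT11 these sums were 370 to 507 and 486 to 559 CPM.

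CNOT10 (ENSG00000182973, plus strand of chr3:32685145-32773875, 19 exons) was among the least abundant members at 7.06 to 9.04 CPM in Control and 6.90 to 9.11 CPM in Induced. Its groups overlapped nearly in full, and the difference was 0.03 ± 0.15 (adjusted p = 0.880 by edgeR) and -0.06 without Control 5 and Induced 2. CNOT10 shares its strand with the pseudogene SUGT1P2 and lies opposite CNOT10-AS1, and since use of strand in the counting is not given in the sources used here, tags of opposite genes cannot be told apart.

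The scaffold CNOT1 (ENSG00000125107, minus strand of chr16:58519951-58629885, 49 exons) counted 35.5, 41.4, 54.3, 39.7 and 31.6 CPM in Control 1 to 5 and 27.2, 37.7, 28.5, 22.9 and 23.5 CPM in Induced 1 to 5. Control 3 was the highest library, and Induced 2 lay above Control 1 and Control 5, so the groups overlapped. CNOT1 was 1.45-fold lower in Induced (-0.53 ± 0.19, adjusted p = 0.0443 by edgeR). The call was lost without any one of Control 1, 2, 3 or 4 or of Induced 1, 3, 4 or 5 (log2 fold changes between -0.67 and -0.43 and adjusted p between 0.0115 and 0.103 over all 10 omissions), with scaling by total counts alone (-0.30, adjusted p = 0.147), without the filter on low counts (adjusted p = 0.0701) and with 1 surrogate variable (-0.24, adjusted p = 0.308). It was -0.75 without Control 5 and Induced 2. The small nucleolar RNA genes SNORA46 and SNORA50A lie within CNOT1 on its strand, and SETD6 overlaps it on the other.

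CNOT2 and CNOT3, the NOT module that binds the scaffold and that repressors also use as a dock, did not pass the test. CNOT2 (ENSG00000111596, plus strand of chr12:70243002-70354993, 16 exons) ran from 31.5 to 41.2 CPM in Control and from 28.2 to 41.0 CPM in Induced, a difference of -0.19 ± 0.15 (adjusted p = 0.295 by edgeR). CNOT3 (ENSG00000088038, plus strand of chr19:54137749-54155681, 18 exons) ran from 15.7 to 29.0 and from 17.5 to 33.3 CPM, a difference of 0.16 ± 0.21 (adjusted p = 0.544). Their groups overlapped. Without Control 5 and Induced 2, CNOT2 passed as lower (-0.35, adjusted p = 0.0284) and CNOT3 did not pass (0.39, adjusted p = 0.0804). With offsets for GC content CNOT2 was also called lower (-0.54, adjusted p = 0.0472), and with those offsets plus the replicate number CNOT3 was called higher (0.57, adjusted p = 0.0444). PRANCR and LENG1 lie opposite CNOT2 and CNOT3, respectively.

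CNOT9 (ENSG00000144580, plus strand of chr2:218568580-218597080, 8 exons), whose pockets receive tryptophans of the TNRC6 proteins, was the second most abundant member in Control and did not pass the test. Control libraries ran from 109 to 180 CPM and Induced libraries from 123 to 170 CPM, so that the Induced range lay within the Control range. The difference was -0.17 ± 0.17 (adjusted p = 0.425 by edgeR), and it was 0.05 with scaling by total counts alone and -0.26 (adjusted p = 0.239) without Control 5 and Induced 2.

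The CAF1-type exonucleases were the members that rose. CNOT8 (ENSG00000155508, plus strand of chr5:154857553-154876792, 7 exons) counted 5.78, 6.59, 4.55, 7.15 and 13.8 CPM in Control 1 to 5 and 25.5, 7.23, 24.2, 18.9 and 25.5 CPM in Induced 1 to 5. In raw tags these were 82 to 319 per Control library and 154 to 431 per Induced library. Induced 2 stood at the level of most Control libraries and Control 5 stood above the rest of its group, which made the groups overlap. CNOT8 was 2.67-fold higher in Induced (1.42 ± 0.37, adjusted p = 0.0186 by edgeR), and passed with every single library left out (adjusted p at most 0.0498). The value was 1.96 without Control 5 and Induced 2, and it did not pass with 1 surrogate variable (0.82, adjusted p = 0.0984). FAXDC2 overlaps CNOT8 on the opposite strand.

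CNOT7 (ENSG00000198791, minus strand of chromosome 8, 7 exons) is the more abundant CAF1 paralog and counted 105, 88.2, 77.2, 122 and 192 CPM in Control 1 to 5. In Induced 1 to 5 it counted 221, 161, 203, 202 and 232 CPM. Induced 2 was the lowest Induced library and Control 5, the highest Control library, lay above it. CNOT7 was 1.74-fold higher in Induced (0.80 ± 0.24, adjusted p = 0.0244 by edgeR). The call was lost without Control 1 or 2 or Induced 1, 3 or 4 (adjusted p up to 0.0641 and log2 fold changes between 0.67 and 1.04 over all 10 omissions), and with 1 surrogate variable (0.41, adjusted p = 0.0864). With offsets for GC content the difference was 0.29 (adjusted p = 0.197), and it was 1.12 without Control 5 and Induced 2. CNOT7 has 2 annotated pseudogenes, and tags with more than 1 alignment were not counted, so its levels may be too low in every library.

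The CCR4-type exonucleases did not pass. CNOT6L (ENSG00000138767, minus strand of chr4:77713387-77819615, 12 exons, 1 annotated pseudogene) counted 10.2, 12.4, 17.9, 12.02 and 11.9 CPM in Control 1 to 5 and 19.6, 11.97, 15.8, 21.1 and 22.8 CPM in Induced 1 to 5. Of the Induced libraries 3 lay above every Control library, Induced 3 lay below Control 3, and Induced 2 stood among the other Control libraries. The difference was 0.50 ± 0.21 (edgeR, adjusted p = 0.0715). It passed without Control 3 (0.63, adjusted p = 0.0394), without Induced 2 (0.62, adjusted p = 0.0214), without both Control 5 and Induced 2 (0.59, adjusted p = 0.0138) and with scaling by total counts alone (0.76, adjusted p = 0.0221), and turned to -0.07 (adjusted p = 0.804) with offsets for GC content. CNOT6 (ENSG00000113300, plus strand of chr5:180494379-180578358, 12 exons) ran from 32.4 to 40.9 CPM in Control and from 29.1 to 41.8 CPM in Induced, with a difference of -0.01 ± 0.14 (adjusted p = 0.947 by edgeR). It was 0.22 with scaling by total counts alone, -0.43 (adjusted p = 0.0715) with offsets for GC content, and -0.12 without Control 5 and Induced 2.

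**Figure D2:**
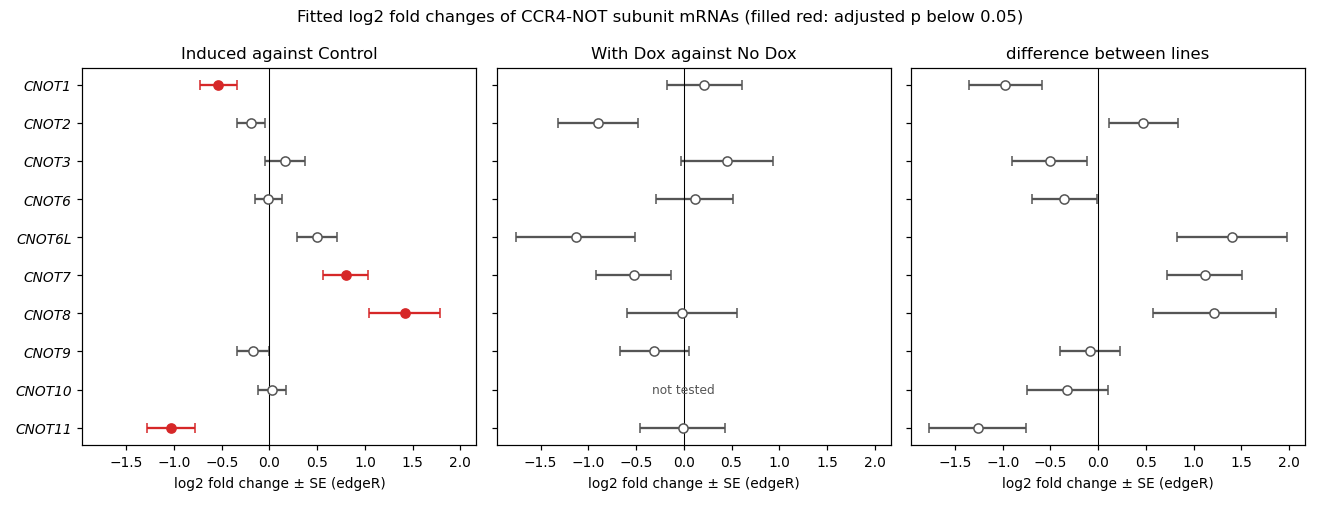
Log2 fold changes ± SE (horizontal axis) of the 10 subunit mRNAs fitted by edgeR for Induced against Control, With Dox against No Dox, and the difference between these 2 contrasts, with filled red points where the adjusted p was below 0.05. Only CNOT1 (-0.53), CNOT7 (0.80), CNOT8 (1.42) and CNOT11 (-1.03) in the first panel are filled, and CNOT10 was not tested in the second.

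Because CNOT7 competes with CNOT8, and CNOT6 with CNOT6L, for one place in the complex, the balance within each pair was compared per library as a difference of log2 CPM. CNOT7 exceeded CNOT8 by 4.16, 3.72, 4.06, 4.07 and 3.79 in Control 1 to 5 and by 3.11, 4.46, 3.06, 3.41 and 3.18 in Induced 1 to 5. Induced 2 had the highest value of all 10 libraries, and the other 4 Induced libraries lay below every Control library. The mean differed by -0.52 (3.96 ± 0.19 against 3.44 ± 0.58, SD, n = 5 each, two-sided exact permutation test over 252 splits, p = 0.111, adjusted p = 0.222 over 4 ratio tests). The smallest p this design allows is 0.00794. For CNOT6 over CNOT6L the values were 1.93, 1.52, 1.19, 1.54 and 1.44 in Control 1 to 5 and 0.98, 1.80, 1.26, 0.71 and 0.35 in Induced 1 to 5, so that 3 Induced libraries lay below the lowest Control library. The mean differed by -0.51 (1.52 ± 0.27 against 1.02 ± 0.55, exact permutation p = 0.111, adjusted p = 0.222). Neither change in balance passed, and both did when Induced 2 was left out (CNOT7 over CNOT8 -0.77, exact permutation test with adjusted p = 0.0317, and CNOT6 over CNOT6L -0.70, adjusted p = 0.0476). Without both Control 5 and Induced 2 the differences were -0.82 and -0.72, and neither passed (exact permutation tests, adjusted p = 0.114 for both). With 4 libraries left per group, and the parental ratios in the adjustment, neither could have passed, so this setting decides nothing. In the parental line the CNOT7 over CNOT8 difference was -0.30 (exact permutation p = 0.5) and the CNOT6 over CNOT6L difference 1.04 (exact permutation p = 0.4), or 0.021 and 0.17 without No Dox 1, where 3 libraries against 3 cannot go below p = 0.1.

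**Figure D3:**
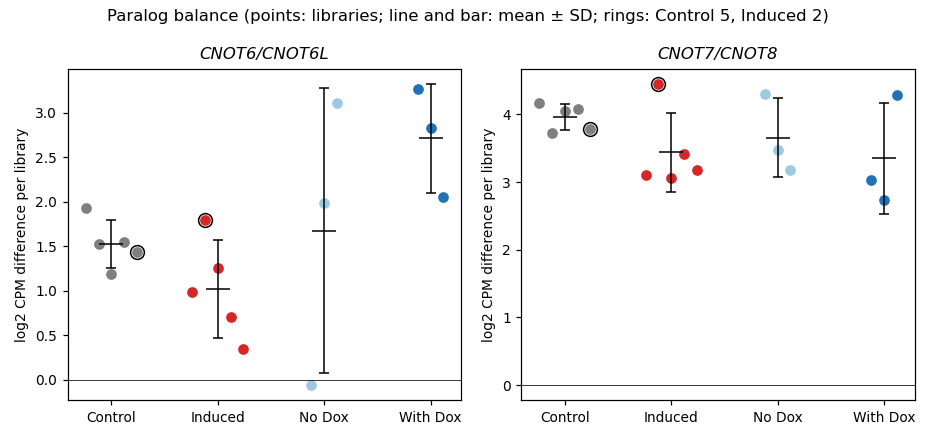
Difference of log2 CPM between paralogous exonucleases in each library (vertical axis), CNOT6 minus CNOT6L at left and CNOT7 minus CNOT8 at right, for the 4 groups, with points for libraries, lines and bars for the mean ± SD, and rings around Control 5 and Induced 2. In both panels Induced 2 (1.80 and 4.46) stands above the other Induced libraries, which reach 1.26 and 3.41 at most.

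Doxycycline alone, in the parental line, called no member. CNOT10, at 7 to 38 tags per library, was below the filter, and none of the other 9 members passed, as 0% of all 9124 tested genes did by edgeR. None of the 9 reached an unadjusted p below 0.05, which 2.93% of all genes did, and DESeq2 called no member either. CNOT11 counted 455, 306 and 386 CPM in No Dox 1 to 3 and 389, 201 and 549 CPM in With Dox 1 to 3, with a difference of -0.01 ± 0.45. CNOT8 counted 13.8, 29.7 and 22.2 CPM and 18.1, 37.7 and 7.95 CPM, with a difference of -0.02 ± 0.58. Both sets of libraries overlapped fully, and the standard errors were wider than in the transgene line.

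CNOT7 counted 290, 341 and 208 CPM in No Dox 1 to 3 and 154, 257 and 172 CPM in With Dox 1 to 3 (-0.53 ± 0.40), and CNOT1 125, 103 and 165 CPM and 193, 161 and 103 CPM (0.22 ± 0.40). The groups overlapped for both genes. CNOT2 was the 1 member whose groups did not overlap, with 55.8, 48.7 and 34.7 CPM in No Dox and 18.8, 22.9 and 33.4 CPM in With Dox, beside 9.52% of all tested genes. Its difference was -0.90 ± 0.42 (edgeR, Benjamini-Hochberg adjusted p = 0.997). CNOT6L went from 42.6, 15.5 and 9.64 CPM to 6.97, 9.72 and 14.3 CPM (-1.13 ± 0.62), where No Dox 1 was far above the rest and the groups overlapped, and the difference was -0.21 without No Dox 1. CNOT3, CNOT6 and CNOT9 differed by 0.45 ± 0.48, 0.11 ± 0.40 and -0.31 ± 0.36. Mitochondrial genes took 1.76% to 9.38% of tags in these libraries and 0.854% to 1.52% in the transgene line. The nuclear RNA MALAT1 had 303 to 1278 CPM in No Dox and 118 to 126 CPM in With Dox (-2.57 ± 0.54, edgeR, adjusted p = 0.997), and its difference between lines was 2.37 ± 0.52 (adjusted p = 0.0405). The part of these RNAs in the members' values was not tested.

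Whether the members responded differently in the 2 lines was tested as the difference of the 2 contrasts over all 16 libraries. By edgeR 0 of 10 members passed, beside 2.98% of 12265 tested genes (2.2% lower and 0.775% higher, or 36 lower and 411 higher genes with total counts alone and 113 and 109 with the replicate block), 4 members had an unadjusted p below 0.05 beside 26.1% of all genes, and DESeq2 called 1 member. The difference was -1.26 ± 0.51 for CNOT11 (adjusted p = 0.132), -0.97 ± 0.38 for CNOT1 (adjusted p = 0.124), 1.11 ± 0.39 for CNOT7 (adjusted p = 0.0934) and 1.40 ± 0.58 for CNOT6L (adjusted p = 0.139). For CNOT8 it was 1.22 ± 0.65 (adjusted p = 0.239). DESeq2 called CNOT7 (adjusted p = 0.0360), beside 1489 of 12265 genes. Without Control 5, edgeR called CNOT7 and CNOT11 (1.31 and -1.44), beside 2291 of 12125 genes. Without With Dox 2, it called the same members (1.498 and -1.41), beside 1647 of 12412 genes. It called CNOT6L without No Dox 3 (1.94), beside 686 of 12342 genes. Without No Dox 1 the CNOT6L difference was 0.75 (edgeR, adjusted p = 0.312). Without both Control 5 and Induced 2, edgeR called 4 members, CNOT1 (-1.23, adjusted p = 0.0190), CNOT7 (1.37, adjusted p = 0.0135), CNOT8 (1.69, adjusted p = 0.0296) and CNOT11 (-1.67, adjusted p = 0.0110), along with 3040 of 12003 genes. Scaling by total counts alone moved the median of all genes from -0.09 to 0.48, and with it CNOT11 to -0.60 and CNOT1 to -0.39. CNOT1 was -0.62 without With Dox 1, CNOT8 was 2.04 (adjusted p = 0.0598) without With Dox 2, and CNOT7 was 0.71 with offsets for GC content. With all libraries, edgeR therefore did not show the responses of the 4 members called on induction to differ from those to doxycycline alone. DESeq2 on the same libraries called CNOT7 of these 4, along with 1489 of 12265 genes, so this count is no result about the complex.

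Some members had different CPM in the 2 lines. The TMM factors were computed for each line alone, so CPM were not scaled to each other between the lines. How far the gaps below depend on this scaling was not tested. CNOT1 counted 103 to 193 CPM in the 6 parental libraries and 22.9 to 54.3 CPM in the 10 libraries of the transgene line, and CNOT9 224 to 353 CPM and 109 to 180 CPM, without overlap. CNOT3 was lower in the parental line, at 7.30 to 15.1 CPM against 15.7 to 33.3 CPM. The other 7 members overlapped, although Control libraries alone lay above No Dox for CNOT11 and below it for CNOT7. The share of all genes without overlap between the lines is not given here, so these counts show no trait of the complex. CNOT11 supplied 29.8% ± 5.02 (SD, n = 3) of member tags in No Dox and 32.8% ± 12.3 in With Dox. The lines were sequenced at different facilities, and for each count on a gene 1.11 to 1.497 tags fell outside genes in the parental libraries and 0.0744 to 0.106 in the others, so no test was made of these levels.

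The start sites of members that rose and fell are shown because the study examined mRNAs whose 5′ end is an oligopyrimidine run. Starts listed by RefSeq on GRCh38.p14 were read for 8 of the members; CNOT1 and CNOT7 are not listed. Each line holds 15 bases before the start in lower case and the first 15 bases of the transcript in capitals, on the plus strand, for CNOT11 at chr2:101252871-101252900 and for the 3 starts of CNOT8 at chr5:154858234-154858263, chr5:154858502-154858531 and chr5:154858612-154858641.
CNOT11: ctgtcgtgtaacagcGCGCTTTACGGCCGC
CNOT8 first start: tccttgttcgctcggAAAGAGGACCAAAAT
CNOT8 middle start: gtctggagtgactctAGAGAGCAGGCGAGT
CNOT8 last start: tcacctcactggctcGTTCGGTTCTAGGAG
A start with C followed by 4 bases that are each C or T, read on the transcribed strand, was found at 0 of the 14 starts of these 8 members and at 1429 of 35116 starts of 27305 genes, or 4.07%. This says only that these letters are not at the listed positions.

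The genes whose profiles were most like those of CNOT1, CNOT11 and CNOT8 were not other subunits. Likeness was the Euclidean distance between log2 CPM profiles over the 10 libraries of the transgene line, each centred on its own mean, and these libraries share depth and composition across genes. Nearest to CNOT11 were DNAJB1, an HSP40 co-chaperone, at 0.222, PIK3R3, a regulatory subunit of PI3-kinase, at 0.236, and PPP1R12C, a regulatory subunit of protein phosphatase 1, at 0.283, where the median gene was at 2.23. Nearest to CNOT8 were MEAF6, a subunit of histone acetyltransferase complexes, at 0.447, ELOC, elongin C, at 0.449, and PTS, an enzyme of tetrahydrobiopterin synthesis, at 0.451 (median 3.06). Nearest to CNOT1 were UQCC3, an assembly factor of respiratory complex III, at 0.300, PHACTR4, a regulator of phosphatase 1 and actin, at 0.304, and TIMM10B, a mitochondrial import protein, at 0.309 (median 1.56). Among the members, CNOT1 was the nearest to CNOT11 at 1.04 and held rank 1817 of all genes, CNOT7 was the nearest to CNOT8 at 1.48 and rank 1286, and CNOT2 was the nearest to CNOT1 at 0.750 and rank 1228.

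Around the complex, 42 further genes of deadenylation were examined, and more of them were called higher than lower in Induced cells. These genes were chosen with earlier results of these data known, so the split describes them and is no independent test. Of the 39 that passed the filter (ANGEL1, NOCT and NANOS3 did not), 15 or 38.5% were called higher and 2 or 5.13% lower, beside 20% and 19.8% of all tested genes, and their median log2 fold change was 0.43 beside 0.04. PAN2, ZFP36 and CPEB2 passed the filter through the Induced libraries alone, and of the 36 genes whose mean count was above 20 in both groups 13 were called higher and 2 lower. The split over the 39 was 20 higher and 0 lower with total counts alone, 10 and 4 with offsets for GC content, and 20 and 7 without Control 5 and Induced 2. Over all genes the splits in the same settings were 4019 higher and 1404 lower, 1541 and 1928, and 4380 and 3949. The 17 calls became between 5 and 26 when a single library was left out, fewer without Control 1, 2 or 4 or Induced 1, 3, 4 or 5 (5 to 8 calls) and 26 without Control 5, and they became 27 without both Control 5 and Induced 2 and 0 with 1 surrogate variable. The accessory subunits CNOT4, a ubiquitin ligase (0.46 ± 0.20, adjusted p = 0.0810), and TNKS1BP1 (0.25 ± 0.19, adjusted p = 0.279) did not pass.

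Of the 6 other deadenylases tested, 2 or 33.3% were called higher, PARN and PAN2, beside 20% of all tested genes. PAN2 passed the filter through the Induced libraries alone, so this share shows no excess. PARN, a poly(A)-specific ribonuclease that acts on many small non-coding RNAs, went from 13.9 ± 6.44 to 23.4 ± 2.44 CPM (SD, n = 5 each, 0.75 ± 0.26, adjusted p = 0.0379). PAN2, the catalytic subunit of the PAN2-PAN3 complex that trims long tails, had 0.508 ± 0.488 and 1.83 ± 0.702 CPM, or 1 to 31 tags per Control library and 19 to 45 per Induced library, and its call (adjusted p = 0.0255) supports no change because it met the filter only where it was high. PAN3, the partner of PAN2, did not pass (0.35 ± 0.21, adjusted p = 0.186). The test throughout was edgeR's, with Benjamini-Hochberg adjustment over all genes.

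Among the 31 tested proteins that bring the complex to mRNAs or work with it, 13 were called higher, ZFP36 included, and 2 lower. These were 41.9% and 6.45% of them, beside 20% and 19.8% of all tested genes. The 41.9% includes ZFP36, which passed the filter through the Induced libraries alone. TOB1, which binds CNOT7 and CNOT8, went from 8.47 ± 1.35 to 17.3 ± 4.87 CPM (SD, n = 5 each, edgeR, adjusted p = 0.0175), and its paralog TOB2 was also higher. TNRC6C, one of the GW182 proteins of microRNA silencing, went from 8.12 ± 1.04 to 15.97 ± 4.96 CPM (edgeR, adjusted p = 0.0175), and CPEB4, a binder of cytoplasmic polyadenylation elements, from 8.23 ± 2.17 to 19.2 ± 5.73 CPM (adjusted p = 0.0175). ZFP36L2, which recruits the complex to AU-rich mRNAs, rose from 9.29 ± 6.10 to 32.6 ± 15.9 CPM (edgeR, adjusted p = 0.0177). Its relative ZFP36 had 4 to 17 tags per Control library and 2 to 88 per Induced library (0.445 ± 0.302 and 3.08 ± 2.18 CPM, adjusted p = 0.0195), a call that, as for PAN2, supports no change. The helicase HELZ, a partner of CNOT1, went from 13.5 ± 3.87 to 24.3 ± 4.75 CPM (edgeR, adjusted p = 0.0180). Other higher genes included PUM2, AGO3, BTG2, SAMD4B and PATL1. Relatives of called genes did not always pass. ZFP36L1, at 1007 ± 91.4 and 1177 ± 63.2 CPM, was not called (edgeR, adjusted p = 0.175). Neither were TNRC6A and TNRC6B (edgeR, adjusted p = 0.550 and 0.185), nor AGO2 and AGO4 (adjusted p = 0.895 and 0.676). BTG1, a TOB relative that also binds the CAF1 subunits, was lower, from 114 ± 43.4 to 66.3 ± 9.86 CPM (edgeR, adjusted p = 0.0249), as was AGO1, from 60.2 ± 9.67 to 42.7 ± 6.90 CPM (adjusted p = 0.0333). In the parental line 0 of the 32 tested genes of these lists were called by edgeR, as were 0% of all genes. In the test of the difference between lines edgeR called 0 of 37, beside 2.98% of all genes. DESeq2 called 5 of the 37, beside 1489 of 12265 genes. Without both Control 5 and Induced 2, edgeR called 9 of the 37, beside 3040 of 12003 genes.

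**Figure D4:**
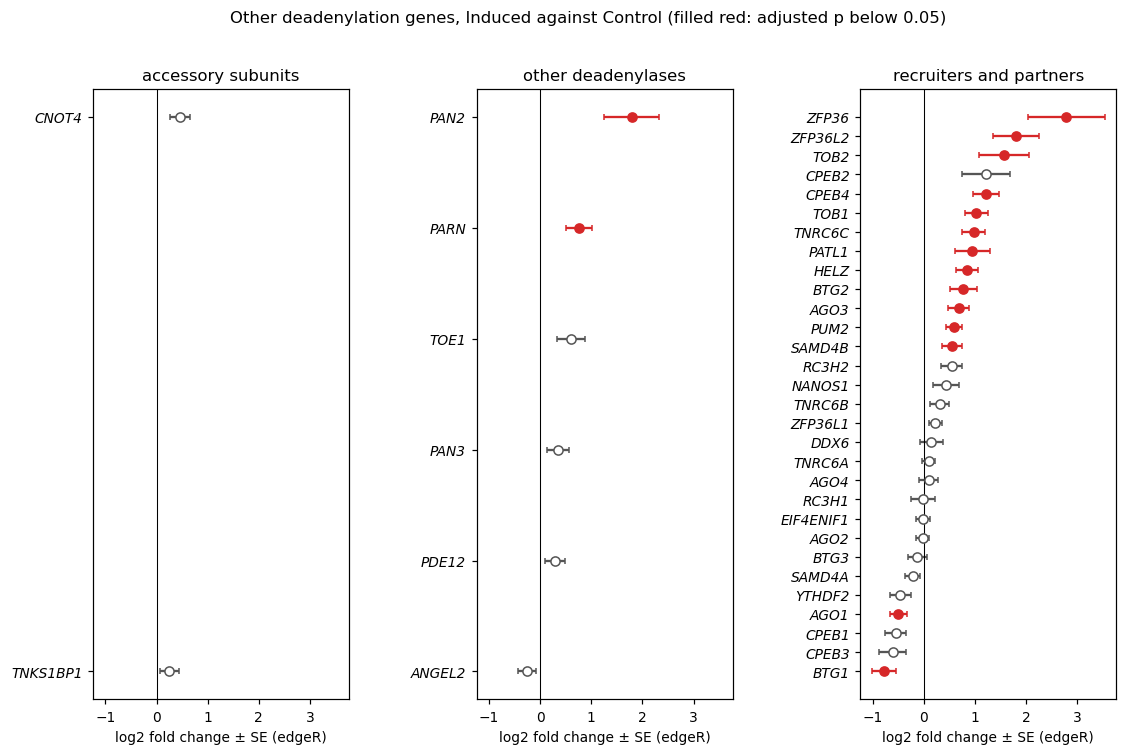
Log2 fold changes ± SE (horizontal axis) of tested genes of the deadenylation lists (all but 1) in Induced against Control, fitted by edgeR and grouped as accessory subunits, other deadenylases, and recruiters and partners, with filled red points where the adjusted p was below 0.05. In the recruiter panel ZFP36, which had few tags in Control, and ZFP36L2 (1.81) lie farthest to the right among called genes, and BTG1 (-0.78) and AGO1 (-0.50) are the called genes to the left of 0.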

How the data were processed

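QuantSeq REV libraries were made from cytoplasmic RNA. The authors deposited raw tag counts for each Ensembl gene from Lexogen's human REV pipeline on GRCh38; the aligner, annotation release and use of strand are not given in the sources used here. Each library listed 60107 genes, 92 spike-in entries at 0 counts and 5 summary entries left out of library sizes (for each count on a gene, 0.0744 to 1.497 tags outside genes and 0.561 to 1.45 aligned to several places). GENCODE release 44 named 56104 genes.

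Genes with a base mean above 20 were fitted in R 4.3.3 with edgeR 4.0.16 (TMM, quasi-likelihood test, Benjamini-Hochberg adjustment over all fitted genes, threshold 0.05), for each line alone and for both lines. Only the difference between lines used all 16 libraries. The SE is the log2 fold change divided by the root of the test statistic. Ratios used log2 CPM with a prior count of 2. The code was tested on simulated data. Named genes were all members, RNMT, called genes of the deadenylation lists (values for the 6 smallest adjusted p in each direction, and for accessory subunits, PAN2, PARN and PAN3), the 3 nearest profiles to CNOT1 and to the member with the smallest adjusted p in each direction, and MALAT1 and NEAT1; 1 list gene is counted but not reported here. ZFP36L1, TNRC6A, TNRC6B, AGO2 and AGO4 were also named, as relatives of called genes that were not called themselves. Members and lists were chosen with earlier results of these data known.

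Alternatives were DESeq2 1.42.0 (test and size factors), total counts, no filter, filterByExpr, a replicate block, GC offsets (lowess span 0.5) with and without it, 1 surrogate variable (sva 3.50.0), a prior count of 0.5 and each library left out. Omitting both Control 5 and Induced 2 was added after seeing the data. The study describes biological replicates for the transgene line and triplicate cultures for the parental line. No pair within a group agreed within sampling noise (smallest chi-square per degree of freedom 4.55). Counting limits cover counting error only.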

Additional observations from a re-analysis of the deposited data

Results flagged for a closer look

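In groups of 5 libraries, 4 values stood apart by Dixon's ratio of the gap to the range (above 0.71), out of 24 groups of member levels and ratios tested. Chance flags about 1 in 20 groups, or 1.2 of these 24. CNOT6L was at 17.9 CPM in Control 3, against 10.2 to 12.4 CPM in the other Control libraries. CNOT8 was at 13.8 CPM in Control 5, against 4.55 to 7.15 CPM in the others. CNOT11 was at 740.3 CPM in Induced 2, against 369 to 449 CPM in the others. The log2 ratio of CNOT7 over CNOT8 was 4.46 in Induced 2, against 3.06 to 3.41 in the others. Control 5 and Induced 2 are the libraries nearer the other group over all genes.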

How the results depend on the processing

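In Induced against Control, the 4 members called became 0 with 1 surrogate variable and between 2 and 5 with a single library left out (2 without Control 1, Control 2, Induced 1, Induced 3 or Induced 4). The 17 list genes called became 0 with 1 surrogate variable, 27 without both Control 5 and Induced 2, and between 5 and 26 with a single library left out. In the difference between lines, the 0 members called became 1 with DESeq2, 4 without both Control 5 and Induced 2 and between 0 and 2 with a single library left out, and the 0 list genes became 5 with DESeq2, 3 with total counts, 1 with GC offsets, 9 without both libraries and between 0 and 7 with a single library left out. The cause was not tested. Called members kept their direction under every alternative.

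Over all genes, the 5183 calls in Induced against Control became 1 with 1 surrogate variable (4278 at an unadjusted p below 0.05), 8329 without both libraries and 1869 to 7604 with a single library left out. Total counts moved the median log2 fold change from 0.04 to 0.28 and the share of calls that were higher from 50.2% to 74.1%. The 365 calls in the difference between lines became 1489 with DESeq2, 236 with its size factors, 3 with filterByExpr, 150 without a filter, 3040 without both libraries, 222 with the replicate block, 194 with GC offsets and the block, and 0 to 2291 with a single library left out. The 0 parental calls became 1 with DESeq2 and 10 without a filter.

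Values that turned their sign were of genes not called. In Induced against Control these were, with total counts, CNOT2 (0.043), CNOT6 (0.22) and CNOT9 (0.055); with 1 surrogate variable, CNOT3 (-0.12) and CNOT6 (0.10); with GC offsets, CNOT6L (-0.073) and CNOT10 (-0.23), and with the block added, CNOT6L (-0.045) and CNOT10 (-0.23); with DESeq2 and with its size factors, CNOT10 (-0.0054 and -0.0082); and without both libraries, CNOT10 (-0.062). In the parental line they were CNOT6 with total counts (-0.012), CNOT8 with DESeq2 (0.0029), its size factors (0.0054) and no filter (0.028), and CNOT11 with DESeq2 (0.0382), its size factors (0.0384), filterByExpr (0.016) and no filter (0.061). In the difference between lines they were, with total counts, CNOT3 (0.074), CNOT6 (0.24), CNOT9 (0.51) and CNOT10 (0.25), and CNOT9 also with filterByExpr (0.075) and no filter (0.092).

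With a single library left out, signs turned within these ranges: in Induced against Control, CNOT3 -0.0018 to 0.30, CNOT6 -0.068 to 0.060 and CNOT10 -0.026 to 0.086; in the parental line, CNOT6 -0.053 to 0.50, CNOT8 -0.67 to 0.33 and CNOT11 -0.43 to 0.36; in the difference between lines, CNOT6 -0.51 to 0.068, CNOT9 -0.19 to 0.18 and CNOT10 -0.53 to 0.15. The ratio of CNOT7 over CNOT8 ran from -0.77 to -0.42 in the transgene line and from -0.77 to 0.021 in the parental line, and that of CNOT6 over CNOT6L from -0.70 to -0.34 in the transgene line.

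Whether replicate numbers pair the libraries is not given in the labels. Same-numbered deviations correlated at -0.373 to 0.63 in the transgene line and -0.42 to 0.237 in the parental line. Of the numbers, 1 of 5 and 1 of 3 correlated best with their own number. With so few libraries these values cannot decide whether dishes were paired. With the replicate block, 4 members and 19 list genes were called in Induced against Control (5190 genes in all), and 0 members in the parental line and in the difference between lines. Depth limits the parental line, where CNOT10 had 7 to 38 tags per library.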
